A study of Mus musculus with 6 samples.

Results

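Alpl, Ank, Enpp1, Phospho1, Slc20a1, Slc20a2, Phex and Smpd3 set how much phosphate and pyrophosphate reaches a mineralizing matrix. They were chosen by symbol, and all 8 were found among the 17582 genes of a table of mouse first mandibular molars at postnatal day 4. Enriched mRNA was read on a BGISEQ-500 instrument in 3 knockout and 3 control libraries of C57BL/6 mice. Knockout animals were K14-Cre; Wnt10aflox/flox: their Wnt10a alleles were floxed, and Cre recombinase was under the promoter of keratin 14, an epithelial gene. Control littermates (Wnt10aflox/flox) had the same floxed alleles but no Cre. Wnt10a encodes a secreted Wnt ligand, and the comparison asks what changes in the molar when the dental epithelium is targeted for its loss. The keratin 14 promoter is not a promoter of dental mesenchyme, whose odontoblasts and pulp also contribute RNA to a dissected molar. Whether animals were pooled is not stated, so all p-values speak of the spread among these 6 samples, which may be technical.

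Mineral of dentin, bone and enamel is a calcium phosphate, and inorganic pyrophosphate blocks its growth. Enpp1 makes pyrophosphate from nucleotides outside the cell, Ank promotes its release from the cell, and Alpl, the tissue-nonspecific alkaline phosphatase, splits it into phosphate. Phospho1 and Smpd3 supply phosphate from membrane lipids around matrix vesicles, Slc20a1 and Slc20a2 carry phosphate into cells with sodium, and Phex, a membrane endopeptidase of odontoblasts and osteoblasts, restrains the phosphate-wasting hormone FGF23.

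Levels are FPKM (fragments per transcript kilobase, relative to the mapped total) as the authors deposited them. Depth, estimated from the values, ranged over libraries from 17980000 to 18490000 reads, with 11774 to 12025 genes at 1 FPKM or above. Wnt10a checked the labels. It held 19.39, 19.94 and 18.07 FPKM in knockout libraries 1, 2 and 3, against 33.61, 36.59 and 31.68 FPKM in control libraries 1, 2 and 3, with a log2 fold change of -0.79 and SE of 0.077 (limma adjusted p = 0.00609, or 0.106 without a filter on low values). All 6 secretory ameloblast markers and all 7 odontoblast markers were detected above the filter, so the tissue matched its label. Library makeup varied within groups. Oral mucosa keratins stood apart in control 1, where Krt13 stood at 94.24 FPKM, against 0.41 to 2.76 FPKM in the other 5 libraries. Skeletal muscle markers, led by Acta1, summed to between 13.5 and 80.9 FPKM in the knockout and between 7.71 and 73.5 FPKM in the control. Sums overlapped between the groups for secretory ameloblasts (led by Amelx), bone (nearly all Bglap), papilla mesenchyme (Vim), cartilage (Col2a1) and erythroid cells (Hba-a1). Single bone markers did not all follow that sum. Ibsp, bone sialoprotein, held 46.02, 41.78 and 43.56 FPKM in knockout libraries 1, 2 and 3, against 58.07, 67.02 and 59.85 FPKM in control libraries 1, 2 and 3, with separate groups (log2 fold change -0.48, limma adjusted p = 0.144). Runx2 averaged 8.53 ± 0.917 FPKM across knockout libraries and 10.3 ± 1.12 FPKM across control libraries (limma adjusted p = 0.869), and Mepe, under the filter, was at most 0.1 FPKM in the knockout and at least 0.17 FPKM in the control. Sp7 and Sost overlapped between the groups, with means of 37.6 and 4.19 FPKM in the knockout against 41.0 and 4.63 FPKM in the control. Separate groups were found for 10.1% of all tested genes. Epcam of the dental epithelium was higher in the knockout and Msx1 of the papilla lower. Both had separate groups and a limma adjusted p of 0.736. The part of these markers in the values of the 8 genes was not tested.

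None of the 8 genes passed the test for a difference between knockout and control molars. The test was limma-trend on log2(FPKM + 1) over the 11934 genes that reached 1 FPKM in at least 3 libraries, two-sided, with Benjamini-Hochberg adjustment at 0.05. All 8 genes met that filter. Their limma adjusted p lay between 0.869 and 0.981, in a comparison where 0.00838% of all tested genes were called, which is Wnt10a alone. The call count of the whole table was 6 without knockout 3 and 3 without control 2, and 0 of the 8 genes were called in either case. At an unadjusted limma p under 0.05 there was 1 of the 8, Smpd3, where 5.7% of all tested genes lay. Log2 fold changes were below 0 for 4 genes and above 0 for 4, with a median of -0.03, against -0.005 over all tested genes. No 95% interval reached below -0.455 or above 0.278 on this scale, which slightly understates the change of low genes. In bulk RNA, fewer cells of a type and less RNA per cell cannot be told apart.

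**Figure D1:**
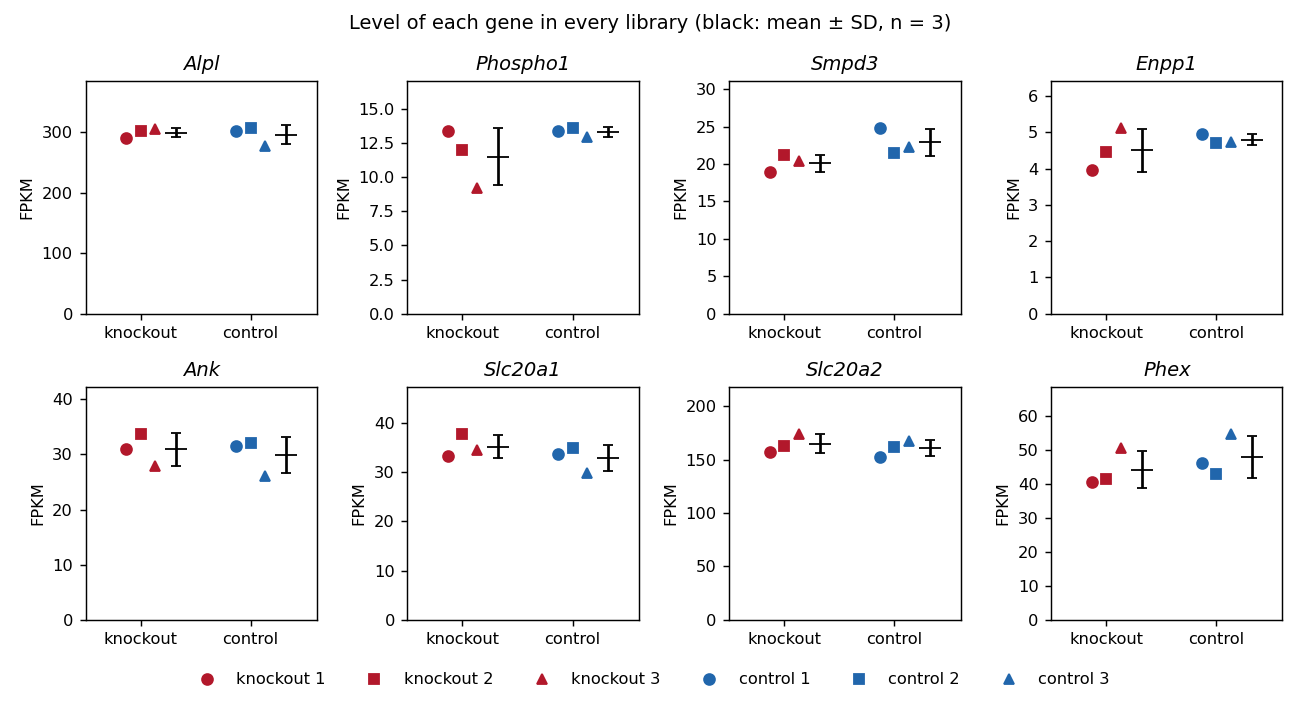
FPKM of each of the 8 genes in every library, with knockout libraries in red on the left and control libraries in blue on the right of each panel, and black marks for the mean ± SD (n = 3). All axes start at 0, and the groups are separate only for Smpd3, where the highest knockout library held 21.15 FPKM and the lowest control library 21.54 FPKM.

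Alpl was the most abundant of the 8 genes and had the narrowest interval. Loss of this enzyme causes hypophosphatasia in people and mice. It stood at 290.36, 302.53 and 304.75 FPKM in knockout libraries 1, 2 and 3, against 301.52, 307.76 and 277.7 FPKM in control libraries 1, 2 and 3. The groups overlapped, and control 3 was the lowest of all libraries. Means were 299.2 ± 7.75 FPKM across knockout libraries and 295.7 ± 15.9 FPKM across control libraries (SD, n = 3 each). On the log2 scale the change was 0.02 (SE 0.068, 95% interval -0.132 to 0.169, limma adjusted p = 0.981). The gene lies on the minus strand of chromosome 4, from 137741733 to 137796384 in GRCm38, the assembly also called mm10. The table lists 2 transcripts for it, and the values do not separate them.

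Phospho1, a phosphatase that frees phosphate from phosphocholine and phosphoethanolamine, was low in 1 knockout library. It held 13.35, 11.95 and 9.22 FPKM in knockout libraries 1, 2 and 3, against 13.39, 13.62 and 12.93 FPKM in control libraries 1, 2 and 3. The controls lay close together, while the knockouts spread from the control range down to knockout 3. Means were 11.5 ± 2.1 FPKM in knockout molars, against 13.3 ± 0.351 FPKM in control molars. The log2 fold change of -0.21 (SE 0.112, 95% interval -0.455 to 0.038) did not pass (limma adjusted p = 0.89). It was -0.07 without knockout 3 and -0.31 without knockout 1. Phospho1 occupies the plus strand of chromosome 11 from 95824499 to 95832140 and rests on between 319 and 464 reads per library, as rebuilt from FPKM, transcript length and estimated depth. Its annotated exons share 1818 bases with exons of Zfp652 on the same strand and 1708 bases with exons of Abi3 on the opposite strand. How reads were split among these genes is not stated, so the level of Phospho1 is uncertain. Abi3 averaged 1.72 ± 0.235 FPKM across knockout libraries and 1.98 ± 0.281 FPKM across control libraries, and Zfp652 averaged 4.77 ± 1.05 and 5.16 ± 0.643 FPKM in knockout and control libraries.

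Smpd3 was the one gene of the 8 whose groups did not overlap. It encodes neutral sphingomyelinase 2, which cleaves sphingomyelin into ceramide and phosphocholine, and mice that lack its activity have poorly mineralized bone and dentin. Smpd3 stood at 18.88, 21.15 and 20.35 FPKM in knockout libraries 1, 2 and 3, against 24.88, 21.54 and 22.24 FPKM in control libraries 1, 2 and 3. Every knockout value lay below every control value, but knockout 2 and control 2 differed by less than the spread within either group. Means were 20.1 ± 1.15 FPKM in knockout molars, against 22.9 ± 1.76 FPKM in control molars, a difference of the means of -12.1%. On the log2 scale the change was -0.18 (SE 0.079, 95% interval -0.35 to -0.002), with an unadjusted limma p of 0.0479 and a limma adjusted p of 0.869. Groups were separate in this way for 10.1% of all tested genes, and 5.35% were separate with the knockout lower, so 1 in 8 stands near the background. Summed osteoclast markers, led by Ctsk, of which 3 of 7 met the filter and none was at 0, were also separate, with 53.7 to 71.4 FPKM in the knockout and 77.1 to 79.2 FPKM in the control. Control 1 held the highest value and also the oral mucosa transcripts, and the part of either marker list in the result was not tested. Without control 1 the log2 fold change was -0.12. Smpd3 spans chromosome 8, positions 106252548 to 106337988 (minus strand), and its exons share 247 bases with Prmt7 on the opposite strand.

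Enpp1 was the least abundant of the 8 genes. It held 3.95, 4.45 and 5.13 FPKM in knockout libraries 1, 2 and 3, against 4.96, 4.71 and 4.72 FPKM in control libraries 1, 2 and 3. The controls fell inside the range of the knockouts. Means were 4.51 ± 0.592 FPKM across knockout libraries and 4.8 ± 0.142 FPKM across control libraries, from between 493 and 637 rebuilt reads per library. On the log2 scale the change was -0.08 (SE 0.096, 95% interval -0.291 to 0.134, limma adjusted p = 0.927). It was -0.004 without knockout 1, -0.16 without knockout 3 and -0.01 with the length trend removed. Enpp1 spans chromosome 10, positions 24637914 to 24712159 (minus strand).

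Wnt ligands that act through beta-catenin reach their targets by way of TCF/LEF factors, so promoter windows were searched for the TCF/LEF core CTTTGA on both strands. RefSeq windows on GRCm38.p6, from 250 bases before to 50 bases after a start site, covered 6 of the 8 genes in 8 windows. Slc20a2 and Smpd3 were not analysed here. The core was found in 2 of the 8 windows, those of Enpp1 and Phospho1, where 16% of 32851 windows of the same length hold it. The 250 bases before the start of both genes are shown because they are the windows with a match, with the matching bases in capitals. The first stretch is chr10:24712160-24712409 on the minus strand, and the second chr11:95824250-95824499 on the plus strand.
Enpp1: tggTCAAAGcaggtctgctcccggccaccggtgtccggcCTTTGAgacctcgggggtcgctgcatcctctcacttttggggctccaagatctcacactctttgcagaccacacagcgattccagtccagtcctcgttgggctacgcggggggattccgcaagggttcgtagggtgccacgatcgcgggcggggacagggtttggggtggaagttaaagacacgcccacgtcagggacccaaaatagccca
Phospho1: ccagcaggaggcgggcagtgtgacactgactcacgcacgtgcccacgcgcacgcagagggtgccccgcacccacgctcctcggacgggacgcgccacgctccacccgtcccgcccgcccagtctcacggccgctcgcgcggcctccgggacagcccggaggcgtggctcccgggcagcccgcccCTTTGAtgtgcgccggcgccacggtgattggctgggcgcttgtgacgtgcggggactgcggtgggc
In Enpp1 the matches begin at -247 and -211 from the start site, the first of them on the opposite strand (TCAAAG as printed). In Phospho1 the match begins at -66. The RUNX motif TGTGGT, searched on both strands in the same way and not overlapping these matches, was found in the window of Enpp1 and in 1 window of Slc20a1, where 16.8% of all windows hold it. These matches describe the letters of the windows only.

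Ank, a multipass membrane protein whose loss causes progressive ankylosis in mice, varied more between library numbers than between genotypes. It stood at 31.05, 33.76 and 27.85 FPKM in knockout libraries 1, 2 and 3, against 31.5, 32.15 and 26.17 FPKM in control libraries 1, 2 and 3. Library 3 was the lowest of its group in both genotypes, 14.1% below the mean of libraries 1 and 2 in the knockout and 17.8% below it in the control. Means were 30.9 ± 2.96 FPKM in knockout molars, against 29.9 ± 3.28 FPKM in control molars. On the log2 scale the change was 0.04 (SE 0.096, 95% interval -0.166 to 0.255, limma adjusted p = 0.962). Ank spans chromosome 15, positions 27466677 to 27594909 (plus strand).

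The sodium-phosphate cotransporters Slc20a1 and Slc20a2 kept the same rank in all libraries. Slc20a2 held 156.71, 163.13 and 174.24 FPKM in knockout libraries 1, 2 and 3, against 152.73, 161.6 and 167.37 FPKM in control libraries 1, 2 and 3. Slc20a1 held 33.36, 37.8 and 34.55 FPKM in the knockout libraries, against 33.68, 34.88 and 29.82 FPKM in the control libraries. The groups overlapped for both genes. Slc20a2 averaged 164.7 ± 8.87 FPKM across knockout libraries and 160.6 ± 7.37 FPKM across control libraries, a log2 fold change of 0.04 (SE 0.069, 95% interval -0.117 to 0.189, limma adjusted p = 0.958). Slc20a1 averaged 35.2 ± 2.3 FPKM in knockout molars, against 32.8 ± 2.64 FPKM in control molars, a log2 fold change of 0.10 (SE 0.08, 95% interval -0.075 to 0.278, limma adjusted p = 0.896). The value for Slc20a1 was 0.04 without control 3 and 0.05 without knockout 2. Slc20a1 spans chromosome 2, positions 129198764 to 129211616 (plus strand), and Slc20a2 spans chromosome 8, positions 22476788 to 22569612 (plus strand). Exons on the opposite strand share 452 bases with Slc20a1 in 9830144P21Rik and 280 in Gm4430, and 95 bases with Slc20a2 in Smim19. Whether reads were counted by strand is not stated, so levels of overlapping genes carry that uncertainty.

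Phex, mutated in X-linked hypophosphatemia, in which dentin is poorly mineralized, was highest in library 3 of both genotypes. It held 40.48, 41.45 and 50.46 FPKM in knockout libraries 1, 2 and 3, against 46.19, 42.84 and 54.69 FPKM in control libraries 1, 2 and 3. Library 3 stood 23.2% above the mean of libraries 1 and 2 in the knockout and 22.9% above it in the control, a larger gap than that between the group means. Those were 44.1 ± 5.5 FPKM across knockout libraries and 47.9 ± 6.11 FPKM across control libraries. On the log2 scale the change was -0.12 (SE 0.105, 95% interval -0.347 to 0.116, limma adjusted p = 0.909), and it was -0.02 without control 3, -0.06 without knockout 1, -0.07 without knockout 2, -0.19 without control 2, -0.21 without knockout 3 and -0.06 with the length trend removed. Phex spans chromosome X, positions 157162075 to 157415312 (minus strand).

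The levels of the 8 genes spanned 63.9-fold and fell in 1 order in all 6 libraries. FPKM is scaled for transcript length, which allows a rough comparison of levels between genes. The places of genes with shared exons, Phospho1 above all, carry the uncertainty given above. Over the 6 libraries Alpl averaged 297.4 FPKM, Slc20a2 162.6, Phex 46.0, Slc20a1 34.0, Ank 30.4, Smpd3 21.5, Phospho1 12.4 and Enpp1 4.65 FPKM. The ranges over libraries were separate for each pair of neighbours in this order except Slc20a1 and Ank. Slc20a1 ran from 29.82 to 37.8 FPKM and Ank from 26.17 to 33.76 FPKM, though Slc20a1 exceeded Ank within each of the 6 libraries. Alpl lay above 99.2% of the genes of the table and Enpp1 above 51.6%.

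RNA of the pyrophosphate-making enzyme was set against RNA of the pyrophosphate-splitting enzyme within libraries. Amounts and activity of the enzymes were not measured. Enpp1 amounted to 1.36%, 1.47% and 1.68% of the FPKM of Alpl in knockout libraries 1, 2 and 3, against 1.64%, 1.53% and 1.7% in control libraries 1, 2 and 3. The groups overlapped, with means of 1.5 ± 0.164% in the knockout and 1.63 ± 0.0864% in the control. The log2 ratio differed by -0.115 between knockout and control (exact permutation test, two-sided, p = 0.3, adjusted over 2 ratios 0.6). Slc20a2 was 4.7, 4.32 and 5.04 times as high as Slc20a1 in knockout libraries 1, 2 and 3, and 4.53, 4.63 and 5.61 times as high in control libraries 1, 2 and 3. Means were 4.69 ± 0.364 in the knockout and 4.93 ± 0.596 in the control, and the log2 ratio differed by -0.0686 (exact permutation test, two-sided, p = 0.7, adjusted 0.7). With 3 libraries against 3 the smallest p this test can give is 0.1. Without control 3 the second difference was 0.0288, on the other side of 0.

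**Figure D2:**
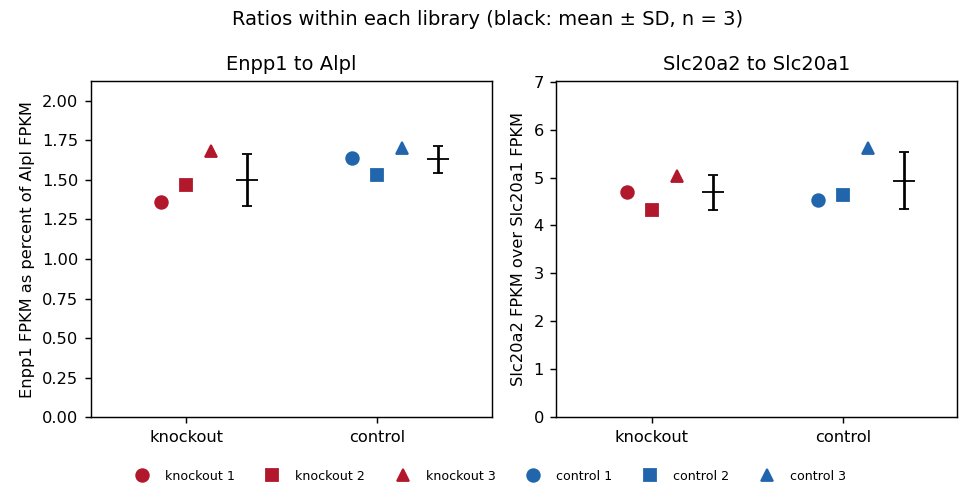
FPKM of Enpp1 as a percent of that of Alpl (left) and FPKM of Slc20a2 over that of Slc20a1 (right) in each library, with knockout libraries in red, control libraries in blue and black marks for the mean ± SD (n = 3). Knockout 3 lies within the control range of the Enpp1 to Alpl ratio, and control 3 holds the highest Slc20a2 to Slc20a1 ratio, 5.61.

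Further genes that handle phosphate, pyrophosphate and mineral gave no call either. Of 63 genes in 6 lists, 62 were in the table and 48 met the filter, and 0 passed by limma in either direction. At an unadjusted limma p under 0.05 there were 4 of the 48, a larger share than the 5.7% of all tested genes. The groups were separate for 9 of the 48, also a larger share than the 10.1% of all tested genes. Neither share was tested against that of all genes. Of these 9, Ppa2, Slc37a4, Smpd2, Mgp, Fetub and Mme were higher in the knockout, and Nt5e, Pld1 and Sgms2 were lower. The median log2 fold change of the 48 was -0.02, with 26 below 0 and 22 above, where 51.8% of all tested genes were below 0. The most abundant genes of each list are given with their values.

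Among 12 tested genes of pyrophosphate and nucleotides outside the cell, the median was -0.04. Entpd3, which hydrolyses nucleotides at the cell surface, averaged 73.1 ± 5.28 FPKM in knockout molars, against 81.5 ± 4.22 FPKM in control molars (log2 fold change -0.16, limma adjusted p = 0.876). The pyrophosphatases Ppa1 and Ppa2, which split pyrophosphate in the cytosol and in mitochondria, averaged 27.1 ± 4.99 and 17.3 ± 0.615 FPKM in the knockout, against 22.3 ± 2.46 and 15.5 ± 1.39 FPKM in the control. Their log2 fold changes were 0.26 and 0.15 (limma adjusted p = 0.88 and 0.89). Among 3 tested phosphate carriers, Slc25a3, the mitochondrial phosphate carrier, averaged 238.0 ± 19.5 FPKM across knockout libraries and 222.6 ± 15.3 FPKM across control libraries. Xpr1, a phosphate exporter, averaged 24.4 ± 1.12 and 27.2 ± 2.7 FPKM in knockout and control, and Slc37a4, which carries glucose 6-phosphate, 25.2 ± 1.4 and 22.6 ± 0.742 FPKM. Their limma adjusted p lay between 0.88 and 0.902. Slc34a2, a further sodium-phosphate cotransporter, lay under the filter.

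In the Phex and FGF23 list, 6 of 11 genes met the filter, with a median log2 fold change of -0.05. Dmp1, a matrix phosphoprotein of odontoblasts and osteocytes, averaged 23.0 ± 4.16 FPKM in knockout molars, against 29.1 ± 6.71 FPKM in control molars (log2 fold change -0.31, limma adjusted p = 0.883). Fam20c, the kinase of secreted phosphoproteins, averaged 70.2 ± 4.95 and 71.1 ± 2.35 FPKM in knockout and control, and Fgfr1, an FGF receptor, 224.1 ± 16.3 and 235.7 ± 4.95 FPKM. Fgf23 itself was at most 0.08 FPKM in any library. Of Phex's family of M13 endopeptidases, 4 genes met the filter. Mme, neprilysin, averaged 41.9 ± 0.648 FPKM across knockout libraries and 38.7 ± 0.969 FPKM across control libraries (log2 fold change 0.11, limma adjusted p = 0.891). The endothelin-converting enzymes Ece1 and Ece2 averaged 16.1 ± 2.33 and 7.57 ± 1.37 FPKM in the knockout, against 17.0 ± 1.05 and 6.93 ± 0.544 FPKM in the control.

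All 19 genes of the list on matrix vesicle lipids and annexins met the filter, with a median of -0.02. Anxa2 and Anxa5, calcium-binding membrane proteins found in matrix vesicles, averaged 299.2 ± 23.0 and 143.5 ± 3.63 FPKM in the knockout, against 274.6 ± 8.36 and 148.1 ± 5.84 FPKM in the control. Enpp2, autotaxin, averaged 146.7 ± 5.88 FPKM in knockout molars, against 143.0 ± 11.3 FPKM in control molars. Among mineral inhibitors and mineral-binding proteins, 4 of 5 genes met the filter. Mgp, a small inhibitor of calcification, averaged 157.1 ± 14.7 FPKM across knockout libraries and 136.3 ± 8.24 FPKM across control libraries (log2 fold change 0.20, limma adjusted p = 0.869). Bglap, osteocalcin, averaged 1852.8 ± 112.0 FPKM in knockout molars, against 1690.1 ± 255.2 FPKM in control molars, while osteopontin, Spp1, held 19.79, 18.6 and 36.22 FPKM in knockout libraries 1, 2 and 3, against 40.06, 39.36 and 33.64 FPKM in control libraries 1, 2 and 3. Knockout 3 lay inside the control range of Spp1, and its log2 fold change was -0.64 (limma adjusted p = 0.736). The summed osteoclast markers, lower in all 3 knockout libraries as given above, moved with Spp1 in knockout 1 and 2. Their part was not tested. Of single markers, Acp5, Ctsk, Mmp9 and Atp6v0d2 had separate groups, each lower in the knockout. Over all tested genes, 5.35% were separate in that direction. None of the 4 was called, with limma adjusted p of 0.515 for Acp5, 0.784 for Ctsk and 0.607 for Mmp9. Atp6v0d2 lay under the filter, with at most 1.05 FPKM in any library. Ocstamp, Dcstamp and Calcr, also under the filter, overlapped, and Calcr had the higher mean in the knockout.

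**Figure D3:**
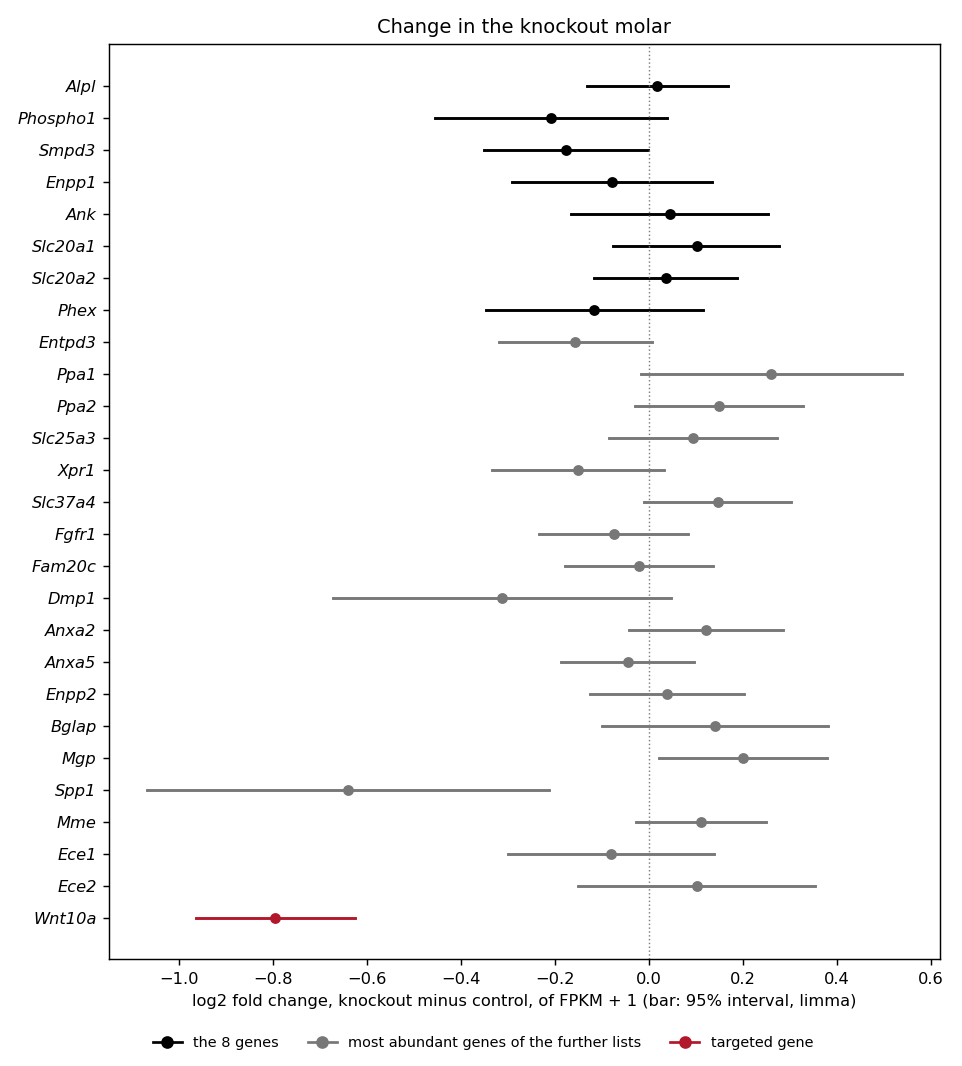
Log2 fold change of FPKM + 1, knockout minus control, with its 95% interval by limma, for the 8 genes (black), the 3 most abundant genes of each further list (grey) and the targeted gene Wnt10a (red). The intervals of the 8 genes stay between -0.455 and 0.278, and that of Wnt10a lies between -0.963 and -0.626.

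The levels of the 8 genes over all 6 libraries, both genotypes together, were set beside markers of the cell types of the molar. With 3 libraries a genotype, no correlation was computed within a genotype, so differences between genotypes enter these values. The 6 libraries fell in the same order for Phex and for the summed FPKM of the odontoblast markers without Phex, lowest in knockout 1 and highest in control 3. That sum is mostly Col1a1 and Col1a2, which averaged 5599.5 and 2447.2 FPKM over the 6 libraries. Col1a1 and Nes, singly, fell in the same order as Phex. The other odontoblast markers did not, with Dmp1 lowest in knockout 3, at 18.25 FPKM, and Dspp and Col1a2 highest there, at 853.08 and 2808.0 FPKM. Pearson's r of Phex with the sum was 0.928 (exact permutation p = 0.00972) and Spearman's rho 1 (exact permutation p = 0.00278), and r was 0.971 without the 2 libraries farthest from the median of the markers. Ank moved with the dental epithelium markers, with r of 0.979 (exact permutation p = 0.00278), rho of 0.943 (exact permutation p = 0.0167) and r of 0.967 without the farthest 2. Phex was as closely related to other lists, with r of 0.933 (exact permutation p = 0.00417, adjusted 0.167) for cartilage and -0.935 (exact permutation p = 0.00972, adjusted 0.194) for dental epithelium, where r without the farthest 2 was 0.864 and -0.427. The cartilage sum was low, from 2.2 to 4.58 FPKM over the libraries, and 1 of its 5 genes, Col2a1, met the filter. Ank had a rho of -0.943 (exact permutation p = 0.0167, adjusted 0.333) with secretory ameloblast markers. Nor were the odontoblast markers related to Phex alone. Enpp1 had r of 0.876 with them (exact permutation p = 0.0181, adjusted 0.25), and 0.977 without the farthest 2. Its rho was 0.829 (exact permutation p = 0.0583). These relations, among 80 between the 8 genes and 10 marker lists, were singled out after their values were seen. After adjustment over the 80, none passed, with adjusted p of 0.194 and 0.222 for Phex with odontoblast markers and 0.167 and 0.333 for Ank with epithelial markers, for r and rho in that order. All values of a library share its total. Odontoblast markers, 7 of 7 tested and led by Col1a1, summed to between 6727 and 10457.5 FPKM in the knockout and between 8736.5 and 10748.1 FPKM in the control. Epithelial markers, 6 of 6 tested and led by Krt5, summed to between 2003.3 and 2333.5 FPKM in the knockout and between 1805.2 and 2270.4 FPKM in the control, and no marker of either list was at 0. Their part in the levels of Phex and Ank was not tested.

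**Figure D4:**
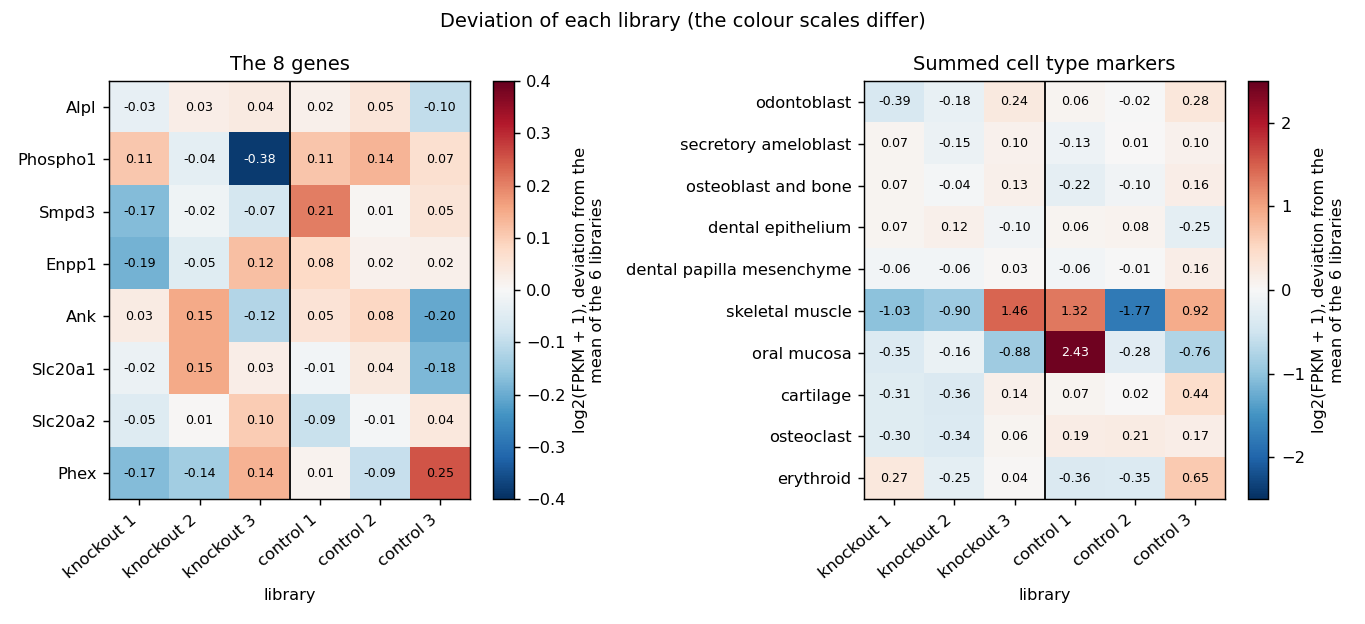
Deviation of each library from the mean of the 6 libraries in log2(FPKM + 1), for the 8 genes (left) and for the summed markers of 10 cell types (right), with knockout libraries left of the line and control libraries right of it. The colour scales of the panels differ, and Phex and the odontoblast markers are highest in control 3 while Ank and the dental epithelium markers are lowest there.

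The genes with the most similar patterns over the 6 libraries were found for the 3 of the 8 genes with the largest spread, by the root mean square distance between deviations in log2(FPKM + 1). Closest to Phospho1 were 2310033P09Rik (distance 0.0517) and Mypop (0.0596). Closest to Phex were Rnf14 (0.0212) and 3632451O06Rik (0.023). Closest to Ank were St14, a membrane serine protease of epithelia (0.0121), and Lztr1 (0.0134). St14 held 17.59, 19.5 and 15.7 FPKM in knockout libraries 1, 2 and 3, against 18.05, 18.63 and 14.82 FPKM in control libraries 1, 2 and 3. It was lowest in library 3 of both genotypes, as Ank was, a likeness that follows from its choice by distance to Ank. All 11934 tested genes were searched, over 6 libraries that share their totals.

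The authors' deposited table gives its own ratio and q-value for each gene, by a test that is not stated. A q-value of at most 0.05 is given in the authors' deposited table to 5 of the 8 genes, where 24.4% of all 16662 genes with one have it, and 29.7% of the genes tested by limma. For Smpd3 the authors' deposited table gives a log2 ratio of -0.18 with a q-value of 5.72e-11, and for Phex one of -0.12 with 7.59e-12. For Slc20a1 the authors' deposited table gives 0.12 with 3.86e-05, for Phospho1 -0.21 with 0.00152 and for Slc20a2 0.04 with 0.0055. The ratios are close to those of limma, while the limma adjusted p of these 5 genes, which rest on the spread between libraries, lay between 0.869 and 0.958.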

How the data were processed

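The authors' deposited table holds FPKM with 2 decimals, per the file headers, for 6 libraries of first mandibular molars. Each gene also has a deposited log2 ratio (knockout over control), p-value, q-value and longest transcript length. Per the submitters' processing notes, Bowtie2 and mm10 were used. The sources used here do not name the quantifier or annotation. FPKM is divided by each library's mapped total, so abundant transcripts lower all others. Amelx took between 30.6% and 35.9% of summed FPKM, and its share of the mapped total was not computed.

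The 8 genes and the lists were chosen with earlier results of these data known. limma 3.58.1 in R 4.3.3 was fitted to log2(FPKM + 1) by group, over genes reaching 1 FPKM in at least 3 libraries, and checked on simulated data. Steps between low FPKM values, with 30 bases taken off transcript length, gave the depth. At that depth 84.1% to 90.8% of low values came within 0.15 of whole reads. Reads per gene were rebuilt from it. Ratios were tested by exact permutation in Python 3.11.15 with scipy 1.17.1. Positions come from GENCODE M21. Named were the 8 genes, the 3 most abundant genes of each further list without a call, Wnt10a, abundant or deviating markers, and the 2 closest patterns of 3 genes. Slc34a2, Fgf23, Fetub, Pld1 and the genes that overlap the 8 were added after values were seen. Alternatives were another pseudocount (0.1), no filter or one at 5 FPKM, median-ratio scaling, removal of the length trend, a replicate block, limma-voom on rebuilt reads, and each library left out. Omission of both libraries numbered 3 was added after seeing the data.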

Additional observations from a re-analysis of the deposited data

How the results depend on the processing

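None of the 8 genes was called under any of the 14 alternatives, where the lowest adjusted p was 0.32, for Smpd3 without both libraries numbered 3. Of 111 fold changes under alternatives, 106 kept their direction. Enpp1 could not be fitted with a filter at 5 FPKM, which it did not meet. Leaving out 1 library moved the log2 fold change of Alpl between -0.0261 and 0.0478, of Ank between -0.0459 and 0.1151 and of Slc20a2 between -0.0051 and 0.0710, each across 0, of Enpp1 between -0.1581 and -0.0039 and of Slc20a1 between 0.0369 and 0.1466, and that of Alpl was -0.0394 without both libraries numbered 3. The Slc20a2 to Slc20a1 difference ran between -0.125 and 0.0288 and the Enpp1 to Alpl difference between -0.199 and -0.0451. The count of called genes in the whole table, 1, was 0 without a filter on low values (924 at an unadjusted limma p under 0.05), 3 with a filter at 5 FPKM, 2 with limma-voom on rebuilt reads, 11 without both libraries numbered 3, and between 1 and 6 with single libraries left out. The cause was not tested. With replicate number as a block the count was 8 and Smpd3 and Phospho1 had adjusted p of 0.509 and 0.49, while the ratios had exact p of 0.25 and 0.5, where 0.25 is the smallest this paired test can give. Same-numbered libraries correlated at -0.06, 0.17 and 0.39 in their deviations, and the labels do not say that numbers mark a shared litter or batch, so the libraries were not treated as pairs. Of the 3 pairs, 1 (knockout 3 and control 3) had both libraries correlate best with each other. Median-ratio scaling shifted the log2 fold changes of single genes by a median of -0.00122. With 3 libraries a group, the 95% interval held 0 for each of the 8 genes except Smpd3.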

Other observations

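Genes that make or use sphingomyelin, the substrate of Smpd3, and Nt5e were looked at further after their values were seen. Sgms2, a sphingomyelin synthase, held 6.53, 6.14 and 5.58 FPKM in knockout libraries 1, 2 and 3, against 8.19, 7.56 and 8.19 FPKM in control libraries 1, 2 and 3. Its groups did not overlap, with a log2 fold change of -0.34 (SE 0.085, interval at 95% from -0.53 to -0.157), and the limma adjusted p of 0.531 was the lowest of the 48 further genes tested. Groups were separate in this way for 10.1% of all tested genes. Smpd2, a further neutral sphingomyelinase, held 14.98, 14.6 and 14.54 FPKM in knockout libraries and 13.45, 12.83 and 12.56 FPKM in control libraries, a log2 fold change of 0.17 (limma adjusted p = 0.869), also without overlap. The other sphingomyelin genes of the list overlapped between groups, with log2 fold changes of -0.02 for Sgms1, 0.06 for Smpd1 and -0.004 for Smpd4 (limma adjusted p of 0.986, 0.926 and 0.995). Nt5e, which makes adenosine from AMP at the cell surface, averaged 7.89 ± 0.954 FPKM across knockout libraries and 9.03 ± 0.566 FPKM across control libraries (limma adjusted p = 0.89).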
